A study of Homo sapiens with 31 samples.

Results

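The RNA captured with SBP-eIF4A1 was compared with the RNA of the lysate it was captured from, in 4 of the 31 libraries of the series: 2 pulldown and 2 input libraries, all from cells that received no siRNA. The cells were HEK293 T-REx, a human embryonic kidney line built for inducible transgenes, and expressed the helicase eIF4A1 joined to a streptavidin-binding peptide (SBP). The tagged protein was pulled down on streptavidin beads and released with biotin, and its RNA was sequenced with a stranded mRNA kit, as was that of the input. The series asks how eIF4A1 and the RNA-binding protein LARP1 act on translation when mTORC1 is inhibited, and also holds ribosome profiling and RNA-seq libraries. Neither a drug nor a gene deletion is named in the labels of these 4 libraries, and the labels do not give the promoter, the level of the tagged protein, the endogenous eIF4A1 left in the cells or the number of clones. Of the other groups used here, cells expressing SBP-eIF4A2 without siRNA gave 2 pulldown and 2 input libraries, and cells expressing SBP-eIF4A1 after 72 h of control siRNA (siControl) gave 2 of each. Cells without a tagged protein served only to describe the transcripts: ribosome profiling of naive and EIF4A1 knockout (KO) cells with DMSO, 2 libraries each, of naive cells after 30 min of the mTOR kinase inhibitor PP242, with 1 library at 1 µM and 1 at 10 µM, and RNA-seq of naive and EIF4A1 KO cells, 2 libraries each.

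eIF4A1 is a DEAD-box RNA helicase that uses ATP to unwind RNA. As a part of the cap-binding complex eIF4F, together with the cap-binding protein eIF4E and the scaffold eIF4G, it opens structure in the 5' leader of mRNAs so that the small ribosomal subunit can attach and scan. eIF4A2 is its close paralog, which also forms eIF4F and has been linked to mRNA repression through the CCR4-NOT complex.

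The deposited values were raw counts for versioned Ensembl transcripts. Reads that fit several transcripts are found in the counts of each, so transcripts whose counts were equal in all 31 files were collapsed, and "transcript" below means 1 of the 77343 distinct rows that were left. Transcripts of one gene still share reads and are not independent of each other. The sources used here do not pair the transcripts with genes. Results are therefore given for transcripts grouped by length and by translation, no gene or sequence is named, and the level of EIF4A1 itself and the markers of the cell line were not checked. The 4 libraries held 38029418 to 41687764 counts over the distinct transcripts, and the input libraries 39949838 and 41687764 of these. Every value is relative to the other transcripts of a library, so that more or less RNA captured in total could not be seen. No pulldown from cells without a tag was analysed here, and RNA that sticks to the beads alone is part of the enrichment.

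The pulldown held a different transcript population from its input. Enrichment, the log2 ratio of pulldown over input, could be tested for 65768 transcripts, and 42029 of them (63.9%) passed edgeR's quasi-likelihood test (Benjamini-Hochberg adjusted p under 0.05). Both directions were about equally common: 21139 transcripts (32.1%) were higher in the pulldown and 20890 (31.8%) were lower. The scaling between libraries (TMM) centres the ratios, here at a median of 0.007, so a near-even split was favoured by it. The median absolute enrichment of the called transcripts was 0.89 log2 units, with a median standard error of 0.12. More than 1 log2 unit separated pulldown from input for 9013 higher and 8236 lower transcripts, and more than 2 units for 691 higher and 625 lower ones. The far end was one-sided, since 76 transcripts were lower by more than 3 units and 9 were higher by as much. Values ran from -5.78 to 3.92.

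The replicates lay close together. After each library was centred on its median, both pulldown libraries exceeded both inputs for 27309 of the 65768 transcripts, and both lay below for 27869. These counts included 21130 of the 21139 called higher and all 20890 called lower. The calls were made on these same libraries, so this near-complete inclusion was favoured in advance. For the 30234 transcripts with a mean of at least 200 counts over the 4 libraries, the enrichment of replicate 1 differed from that of replicate 2 with an SD of 0.17 log2 units, and the correlation between them across transcripts was 0.98. The chi-square per degree of freedom between replicates, which is 1 for counting noise alone, was 1.39 for the inputs and 1.73 for the pulldowns. It was 1.46 for the SBP-eIF4A2 inputs and 6.46 for the SBP-eIF4A2 pulldowns, and 6.24 and 11.4 for the siControl inputs and pulldowns. The labels do not say that replicates came from separate cultures, and p-values measure only the spread between the samples of a fit, which may be technical. For SBP-eIF4A1 pulldown against input that spread was estimated together with the 4 SBP-eIF4A2 libraries.

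**Figure D1:**
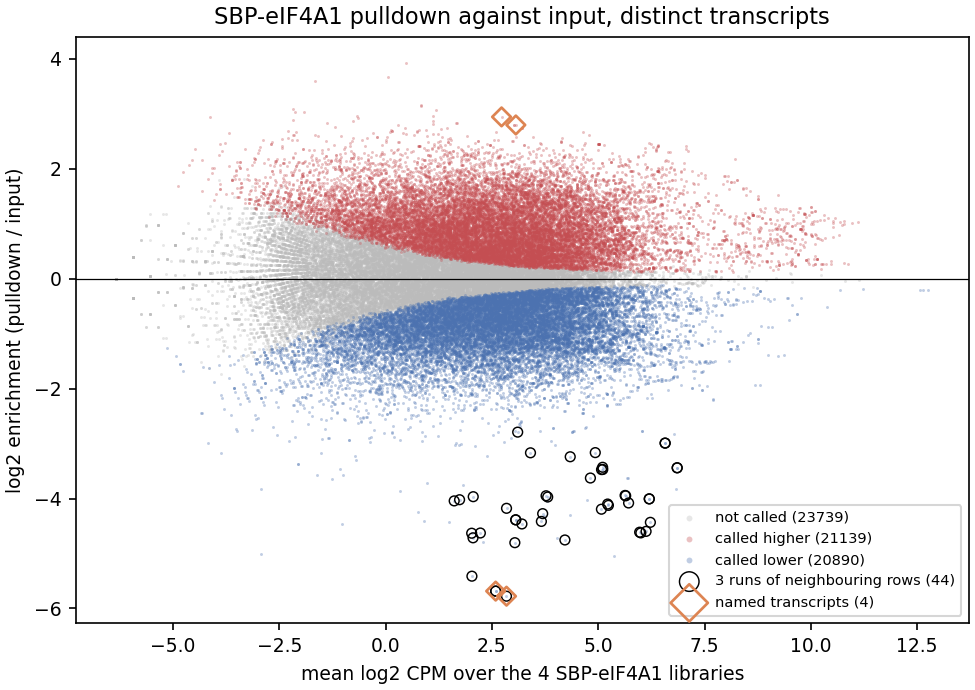
Log2 enrichment with SBP-eIF4A1 (pulldown over input, vertical axis) against the mean level over the 4 libraries in log2 CPM, that is counts relative to a library's sum (horizontal axis), 1 point per tested transcript. Red points are the 21139 called higher, blue the 20890 called lower and grey those not called; open circles are the 44 transcripts of the 3 runs of neighbouring rows, which lie between -5.78 and -2.79, and orange diamonds the 4 transcripts given by ID.

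The transcripts given by ID are the 2 highest and the 2 lowest of those called with a mean of at least 200 counts. The enriched pair reached that mean through the pulldown, with 99 to 140 counts in the inputs and 643 to 926 in the pulldowns, so a high enrichment was favoured by the choice. ENST00000567076.5, of length 164, was at 2.63 and 2.38 CPM (counts scaled to the library total) in the inputs and at 16.9 and 18 CPM in the pulldowns. Its pulldown values were far above its input values in both replicates. After TMM scaling this was an enrichment of 2.94 log2 units (SE 0.12, n = 2 libraries per group, edgeR adjusted p = 3.23e-12), or 7.68-fold. ENST00000219542.3, of length 178, stands in the neighbouring row and was at 3.50 and 3.17 CPM in the inputs and 19.5 and 22.3 CPM in the pulldowns. It was enriched by 2.80 log2 units (SE 0.14, n = 2, edgeR adjusted p = 2.71e-11), or 6.95-fold. Both transcripts carried few footprints for their RNA in naive cells. ENST00000567076.5 had 6 and 4 footprint counts in the ribosome profiling libraries beside 151 and 87 counts in RNA-seq. ENST00000219542.3 had 4 and 3 beside 179 and 75. The RNA-seq libraries were deeper, with 63648586 and 59629311 counts over the distinct transcripts against 16443552 and 19075559 for the footprints. From CPM, the log2 ratio of footprints to RNA was -2.61 for ENST00000567076.5 and -3.08 for ENST00000219542.3.

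The most depleted transcripts were of the opposite kind. ENST00000341023.1, of length 121, was at 54.5 and 59.7 CPM in the inputs and at 0.84 and 0.94 CPM in the pulldowns. Its enrichment was -5.78 log2 units (SE 0.11, n = 2, edgeR adjusted p = 9.21e-16), or 54.8-fold less in the pulldown. ENST00000635200.1, of length 160, went from 44.9 and 47.8 CPM in the inputs to 0.79 and 0.75 CPM in the pulldowns, an enrichment of -5.68 (SE 0.11, n = 2, edgeR adjusted p = 1.52e-15), or 51.4-fold less. Pulldown counts of 30 to 39 reads were left for these transcripts, so their position rests on small pulldown counts and large input counts. Ribosomes were found on them, since in naive cells they had 2228 and 2828, and 2734 and 3370, footprint counts. Their RNA was abundant too, with 6147 and 6139, and 4831 and 4904, counts in RNA-seq. From CPM, the log2 ratio of footprints to RNA was 0.51 for ENST00000341023.1 and 1.12 for ENST00000635200.1.

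The same 4 transcripts were read in the other pulldowns. Since they were picked for their extreme values with SBP-eIF4A1, a less extreme value in the other experiments was favoured by the choice. With SBP-eIF4A2 the enrichment of ENST00000567076.5 was 1.96, lower than with SBP-eIF4A1 by 0.98 (value of the difference, SBP-eIF4A1 minus SBP-eIF4A2, edgeR adjusted p = 0.000577), and that of ENST00000219542.3 was 1.95, a difference of 0.84 (adjusted p = 0.00524). After siControl their enrichments were 1.01 and 0.84, with differences from the cells without siRNA of -1.93 (edgeR adjusted p = 0.000689) and -1.94 (adjusted p = 0.000493). For the depleted pair no difference between the experiments passed the test. Both belong to 1 run of 20 neighbouring transcripts, of which 10 were called different from SBP-eIF4A2 and 14 different after siControl. ENST00000341023.1 was at -5.71 with SBP-eIF4A2 and -5.96 after siControl, with differences of -0.06 (edgeR adjusted p = 0.809) and -0.19 (adjusted p = 0.758). ENST00000635200.1 was at -5.67 and -5.90, with differences of -0.02 (edgeR adjusted p = 0.92) and -0.22 (adjusted p = 0.719).

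**Figure D2:**
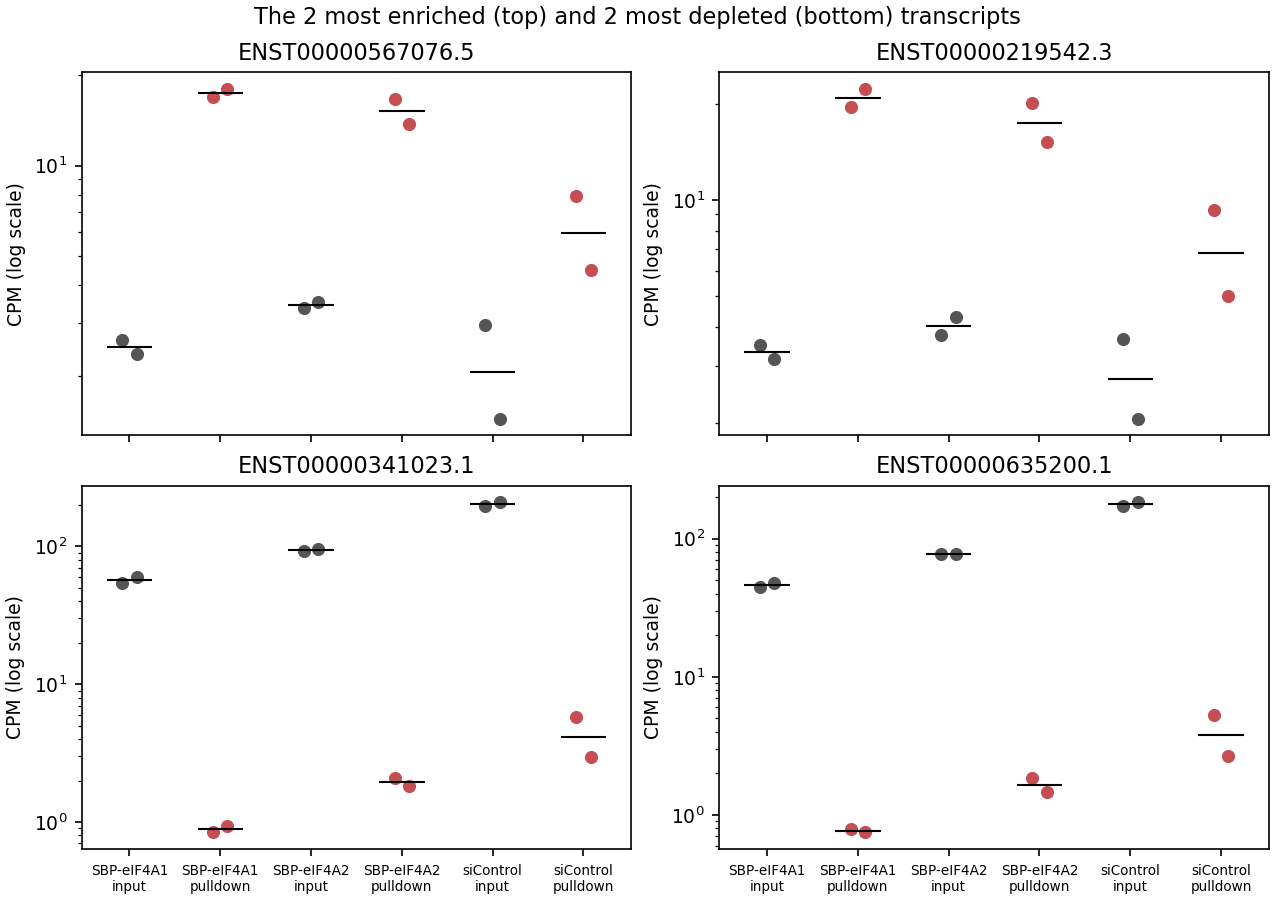
CPM (vertical axes, log scale) of the 4 transcripts given by ID in 12 libraries; grey points are input and red points pulldown libraries, and the bars are geometric means of 2. The enriched pair (top) has all pulldown libraries above its own inputs with the smallest gap after siControl, and the depleted pair (bottom) has pulldown values of 0.75 to 0.94 with SBP-eIF4A1 against 44.9 to 59.7 in the inputs.

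The strongest depletion was concentrated in a few places of the transcript list. Among transcripts with at least 200 counts on average, 312 were called lower and 290 higher by more than 2 log2 units, which describes the tails and was not tested. Where members of a tail stood within 10 rows of each other they were joined, since rows close together often share reads, and this gave 105 groups for the depleted and 107 for the enriched tail. In the depleted tail 3 runs stood apart, chosen after their values were seen, and they held 41 of the 60 transcripts below -3. Together these runs had 44 transcripts in 20, 12 and 12 rows, with enrichments from -5.78 to -2.79 and a median of -4.09. Their lengths lay between 94 and 212 and recurred from run to run: 13 transcripts had a length of 117, 9 of 121, 8 of 94 and 5 of 127. In the first run the median transcript was at 59.3 and 58.8 CPM in the inputs and at 2.65 and 2.69 CPM in the pulldowns. The second run went from 310.7 and 314.1 CPM to 14.8 and 15.7 CPM, and the third from 40.7 and 40.6 CPM to 3.32 and 3.10 CPM. All 3 runs were depleted in the other pulldowns as well, with a median over the 44 transcripts of -4.70 with SBP-eIF4A2 and -5.41 after siControl. In the tests of the difference 29 of the 44 were called less depleted with SBP-eIF4A1 than with SBP-eIF4A2 and 0 more, and 38 were called lower after siControl and 0 higher. They carried many footprints for their RNA in naive cells, with a median of 0.85 for the log2 ratio of footprints to RNA, where both are in CPM. This ratio also depends on how fully RNA-seq recovered these RNAs, which was not tested.

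The whole tails differed in length and in the ratio of footprints to RNA. The 312 depleted transcripts, the 44 of the runs included, had a median length of 760.5; 82 of them had a length of at most 250 and 125 were longer than 1000. The 290 enriched transcripts had a median length of 159, 211 of them had a length of at most 250 and 1 was longer than 1000. Over all 30234 transcripts the median length was 359. The enriched tail carried few footprints for its RNA, with a median log2 ratio of -1.50, against 0.23 in the depleted tail. The largest group of enriched rows held 14 transcripts with enrichments between 2.41 and 2.57, and was not short, with lengths of 144 to 863 and a median of 720. Their median was at 14.2 and 14.8 CPM in the inputs and 74.6 and 67.9 CPM in the pulldowns, and their median footprints-to-RNA ratio was -3.88. The next group, of 10 transcripts with lengths of 86 to 324, rose from a median of 13.6 and 11.5 CPM to 53.2 and 48.6 CPM, and its footprints-to-RNA ratio was -0.12, unlike that of the tail. One of 9 transcripts with lengths of 188 to 263 rose from a median of 38.9 and 38.0 CPM in the inputs to 164.7 and 182 CPM in the pulldowns, with a footprints-to-RNA ratio of -3.41.

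Capture by SBP-eIF4A1 fell with the deposited length. The unit of this value of the authors is not given, nor is the part of the transcript that it covers. It ran down to -9, so it is not the plain length of a whole transcript. It was used only to rank transcripts, and short and long refer to this value throughout. Across the 30234 transcripts with at least 200 counts on average, 40.3% were called higher and 41.6% lower in the pulldown. In the shortest of 8 equal bins (lengths 7 to 128) 62.7% were called higher and 21.5% lower, with a median enrichment of 0.52. In the longest bin (967 to 8914) 12.3% were called higher and 75.7% lower, with a median of -0.78. The medians fell at every step between these bins. Each replicate gave the gradient by itself, from 0.53 to -0.78 in replicate 1 and from 0.53 to -0.82 in replicate 2. With 1 transcript per locus, a reduction by correlation between neighbouring rows that can leave several per gene, it ran from 0.59 to -0.72. Spearman's rho between length and enrichment was -0.40 over 30234 transcripts, which share reads, libraries and depth.

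The gradient could be seen in the make-up of the libraries. Transcripts of length up to 200, with 1 transcript per locus, took 23.7% and 24.0% of the counts in the inputs and 33.5% and 33.3% in the pulldowns. Those longer than 1000 took 15.1% and 14.8% in the inputs and 8.79% and 8.51% in the pulldowns. Neither class overlapped between input and pulldown. The pulldown was also more concentrated, since the 100 most abundant of these transcripts took 29.5% and 29.6% of its counts against 23.4% and 23.8% of the input. With SBP-eIF4A2 the same share was 21.9% and 22.5% in the inputs and 19.6% and 20.9% in the pulldowns. After siControl it went from 26.4% and 27.4% in the inputs to 13.6% and 13.7% in the pulldowns.

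The relation to length was not the same in the 3 pulldown experiments. For the 30234 transcripts, rho of length with the difference in enrichment was -0.51 for SBP-eIF4A1 minus SBP-eIF4A2 and 0.68 for siControl minus no siRNA. Over all transcripts tested, low counts included, these were -0.23 and 0.37. With SBP-eIF4A2 the medians fell from 0.11 in the shortest to -0.48 in the longest bin, a smaller span than with SBP-eIF4A1, and rho was -0.17. After siControl, with the same tagged protein as in the cells without siRNA, the order was turned around: the medians rose from -0.87 to 0.64 and rho was 0.42. Replicates of each experiment were close, with -0.91 and -0.99 in the shortest bin after siControl and 0.51 and 0.63 in the longest. The inputs differed less, as transcripts up to 200 took 23.4% and 23.7% of the SBP-eIF4A2 inputs and 27.0% and 27.7% of the siControl inputs. In the pulldowns they took 26.3% and 27.3% with SBP-eIF4A2 and 17.1% and 16.4% after siControl.

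**Figure D3:**
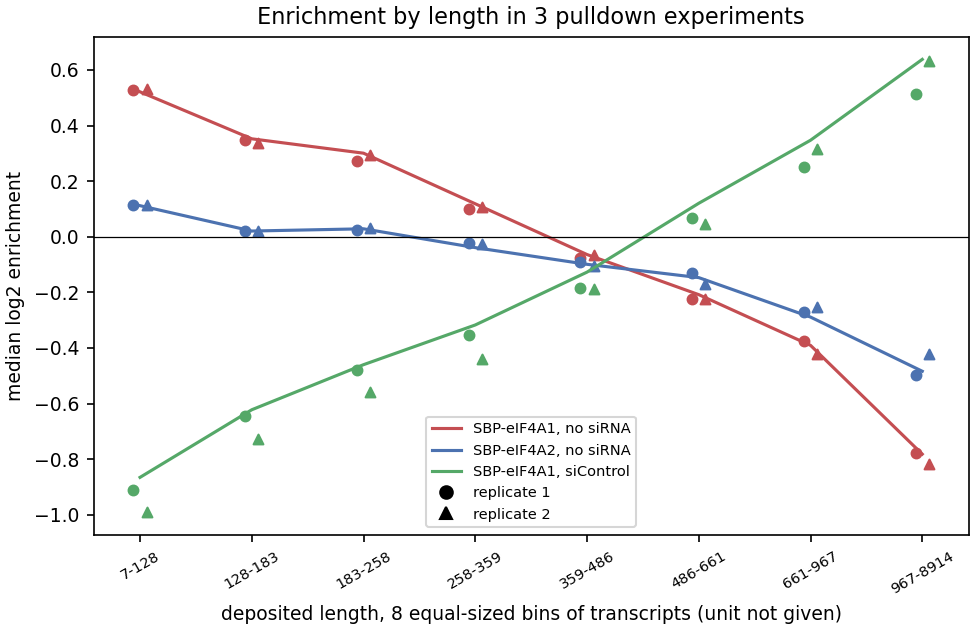
Median log2 enrichment (vertical axis) in 8 equal-sized bins of the deposited length (horizontal axis) for 30234 transcripts; lines are the fitted medians of the 3 pulldown experiments, circles replicate 1 and triangles replicate 2. SBP-eIF4A1 without siRNA falls from 0.52 to -0.78, SBP-eIF4A2 from 0.11 to -0.48, and SBP-eIF4A1 after siControl rises from -0.87 to 0.64.

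The differences between experiments were tested transcript by transcript. Enrichment with SBP-eIF4A1 differed from that with SBP-eIF4A2 for 13212 of 65768 transcripts (20.1%) in edgeR's quasi-likelihood test with the same threshold. It was higher with SBP-eIF4A1 for 8305 of these and lower for 4907. The number of calls depended on single libraries, as it ranged from 7979 without replicate 1 of the SBP-eIF4A1 inputs to 22362 without replicate 1 of the SBP-eIF4A2 pulldowns. Among the transcripts with at least 200 counts on average, 23.7% were more enriched with SBP-eIF4A1 and 12% less. In the shortest length bin these shares were 47.4% and 2.09%, and in the longest 2.30% and 41.2%. Between these pulldown experiments, then, the calls for SBP-eIF4A1 lay mostly among short transcripts and those for SBP-eIF4A2 mostly among long ones. The experiments share no library, so the tagged protein and other differences between the experiments cannot be told apart.

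Enrichment after siControl differed from that without siRNA for 36861 of 65044 transcripts (56.7%) by the same edgeR test, 19252 higher and 17609 lower after siControl. Of the transcripts with at least 200 counts on average, 32.2% were higher and 40.2% lower after siControl. In the shortest bin 6.09% were higher and 77.5% lower, and in the longest 88.8% were higher and 1.16% lower. The labels separate these experiments by the siRNA alone; whether they also differ in day, lysate or beads is not given, and the siRNA and such differences cannot be told apart.

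Across transcripts the SBP-eIF4A1 pulldown resembled the SBP-eIF4A2 pulldown. Of the 12195 transcripts called higher with SBP-eIF4A1 among those with at least 200 counts, 9679 were also called higher with SBP-eIF4A2, which is 79.4% of the SBP-eIF4A1 list and 86.3% of the SBP-eIF4A2 list. Of the 12587 called lower, 11054 were lower with SBP-eIF4A2, or 87.8% and 79.7% of the lists. Over all these transcripts 37.1% were called higher and 45.9% lower with SBP-eIF4A2. Opposite calls were few, with 772 transcripts higher with SBP-eIF4A1 and lower with SBP-eIF4A2 and 275 the other way. After siControl 5228 of the 12195 were called higher and 4104 lower, and of the 12587 depleted ones 6655 were called lower and 3282 higher; over all these transcripts 34.3% were higher and 43.5% lower after siControl. Spearman's rho of the enrichments was 0.90 with SBP-eIF4A2 and 0.25 with siControl. The 3 experiments share no library.

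**Figure D4:**
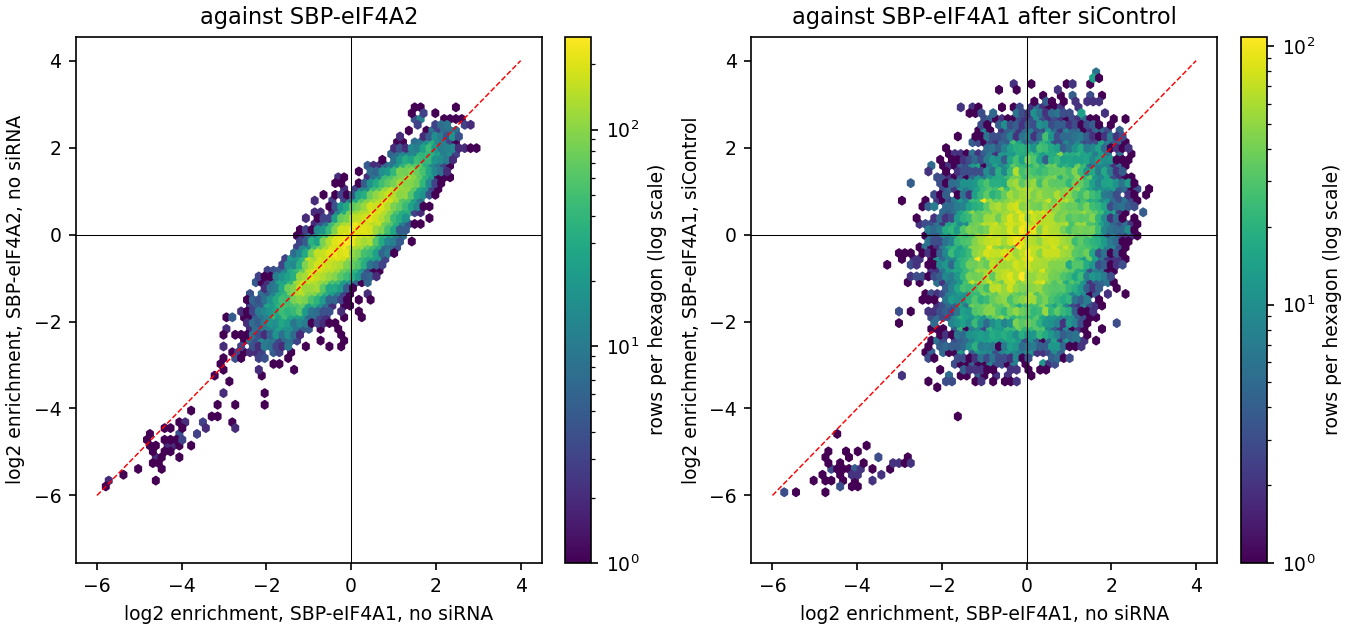
Log2 enrichment with SBP-eIF4A1 without siRNA (horizontal axes) against that with SBP-eIF4A2 (left) and with SBP-eIF4A1 after siControl (right) for transcripts with a mean of at least 200 counts; colour gives the number of transcripts per hexagon on a log scale and the dashed line marks equal values. The left cloud follows the line (rho 0.90) and the right one is broad (rho 0.25), and the few transcripts near -4 to -6 lie together in both.

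Transcripts with few footprints for their RNA were enriched. Footprints per RNA, the log2 CPM of footprints minus that of RNA-seq in naive DMSO-treated or untreated cells, came from libraries that the pulldown did not use. In the lowest of 8 bins of this ratio the median enrichment with SBP-eIF4A1 was 0.76 and 70.0% of transcripts were called higher, with 18.3% lower. In the highest bin the median was -0.28, with 27.8% higher and 52.6% lower. Both replicates gave these medians, 0.76 and 0.75 in the lowest and -0.32 and -0.27 in the highest bin. The decline levelled off over the upper bins, where the medians were -0.25, -0.31 and -0.28, and rho over all 30234 transcripts was -0.32.

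The relation was present at every length. Transcripts were split into 4 length classes and each class into 4 classes of footprints per RNA. From the lowest to the highest of these the median enrichment went from 0.88 to 0.10 among the shortest transcripts (7 to 183), and from 0.83 to -0.24 in the next class (183 to 359). It went from 0.62 to -0.61 for lengths of 359 to 661 and from 0.01 to -0.91 for the longest (661 to 8914). With 1 transcript per locus the medians went from 0.82 to 0.48, from 0.91 to -0.11, from 0.70 to -0.57 and from 0.04 to -0.91. Among the shortest the fall was then smaller and lay between the lowest class and the next, which was at 0.46. The corners of this grid, over all 30234 transcripts, held the clearest shares. Among short transcripts with few footprints 82.3% were called higher and 8.68% lower, and among long transcripts with many footprints 7.52% were called higher and 82.7% lower. Unlike length, footprints per RNA had the same sign of relation in all 3 pulldowns: from the lowest to the highest of 8 bins the medians went from 0.85 to -0.52 with SBP-eIF4A2 and from 0.87 to -0.81 after siControl.

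**Figure D5:**
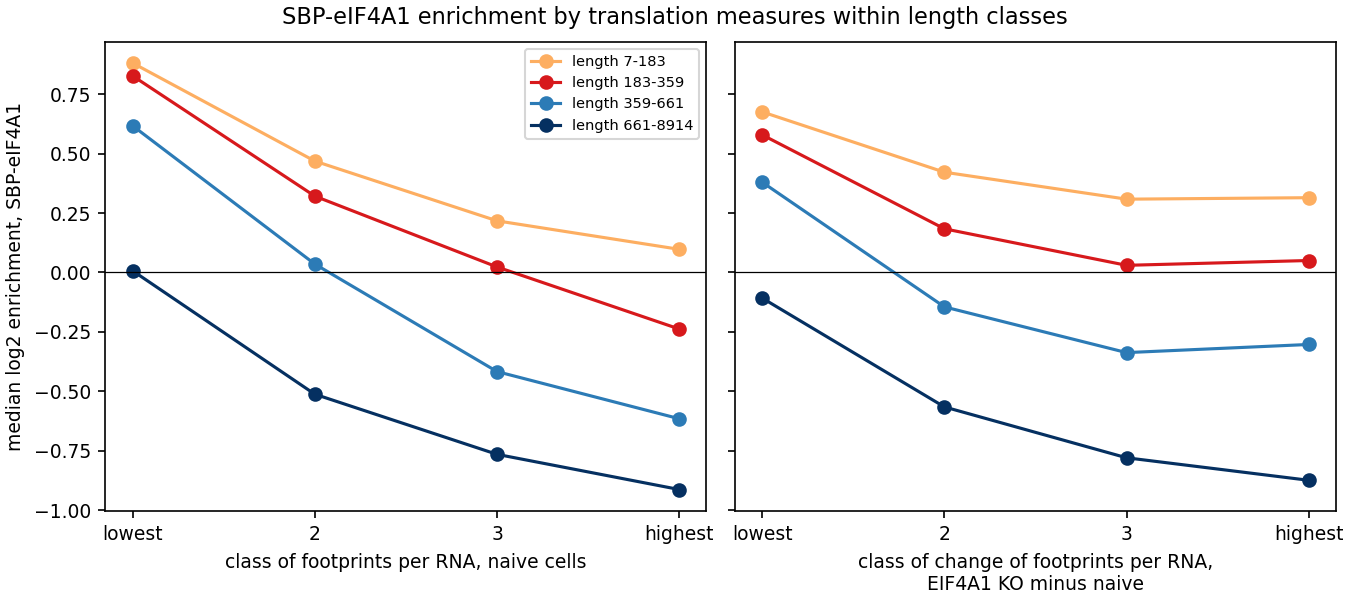
Median log2 enrichment with SBP-eIF4A1 (vertical axis) in 4 classes of footprints per RNA in naive cells (left) and of its log2 change in EIF4A1 KO cells (right), each within 4 length classes (colours). On the left every line falls, from 0.88 to 0.10 in the shortest and from 0.01 to -0.91 in the longest class, and on the right the step from the lowest class to the next is the steepest of each line.

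Transcripts that lost footprints per RNA in EIF4A1 KO cells were among those enriched with SBP-eIF4A1. The change was the KO value minus the naive value, from 2 DMSO ribosome profiling and 2 RNA-seq libraries of each genotype. In the lowest of 8 bins, where footprints per RNA fell by 0.43 log2 units or more, the median enrichment was 0.67 and 71.4% of transcripts were called higher, with 14.8% lower. In the highest bin, from 0.39 upwards, the median was -0.32 with 31.0% called higher and 53.9% lower. Replicates gave 0.64 and 0.67 for the lowest and -0.33 and -0.35 for the highest bin, and rho was -0.30. Within the length classes the medians went from 0.68 to 0.31, from 0.58 to 0.05, from 0.38 to -0.30 and from -0.11 to -0.87. With 1 transcript per locus they went from 0.59 to 0.43, from 0.57 to 0.15, from 0.37 to -0.26 and from -0.04 to -0.87. SBP-eIF4A2 showed a like pattern, with 0.58 in the lowest and -0.29 in the highest bin. The test of the difference between these pulldown experiments gave shares near their overall level in the lowest bin, with 23.2% of transcripts more enriched with SBP-eIF4A1 and 11% less. After siControl the lowest bin was at 0.30, the highest at 0.02 and the 6 between at -0.30 to -0.10, and rho was -0.05.

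The effect of PP242 on footprints in naive cells was taken as the mean of 1 library at 1 µM and 1 at 10 µM minus the mean of 2 DMSO libraries. Where footprints fell most, in the lowest of 8 bins, the median enrichment with SBP-eIF4A1 was 0.51, with 63.3% of transcripts called higher and 21.8% lower. The seventh bin was at -0.29 and the highest at -0.19, and rho was -0.21. Transcripts of the lowest bin were shorter, with a median length of 215 against 478 in the highest. Within the shortest length class the medians went from 0.68 to 0.32, within the next from 0.35 to 0.15, within the third from 0.12 to -0.24, and within the longest from -0.22 to -0.71. With 1 transcript per locus these were 0.76 to 0.33, 0.35 to 0.33, 0.17 to -0.12 and -0.18 to -0.64, so that the second class showed almost no fall from end to end. The other pulldowns differed here. With SBP-eIF4A2 the lowest bin was at 0.12, and in the test of the difference 45.6% of its transcripts were more enriched with SBP-eIF4A1 and 5.90% less. These shares depended on length. In the shortest length class 61.7% of the lowest PP242 class and 22.7% of the highest were more enriched with SBP-eIF4A1. In the longest length class these shares were 4.8% and 3.3%, and 30.0% of the lowest PP242 class were less enriched with SBP-eIF4A1. After siControl the order over the 8 bins was reversed, from -0.45 in the lowest to 0.19 in the highest. Within the length classes this rise was found in the shortest, from -1.095 to -0.34, and the next, from -0.55 to -0.09. The third class went from 0.13 to 0.02 and the longest fell from 0.89 to 0.42.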

How the data were processed

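Per the labels' protocols, pulldown RNA and input RNA were made into libraries with a stranded mRNA kit. The submitters' processing notes name CASAVA 1.8, STAR 2.7.0a and the build hg38; the counting tool and annotation are not given in the sources used here. The authors deposited, per library, raw counts for 227264 versioned Ensembl transcripts and another value, a length, for 100283 of them. All counts fell in transcripts with a length. Lengths ran from -9 to 35982.

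Of 94734 transcripts with counts, rows equal in all 31 files were collapsed to 77343; 9158 of these stand for several transcripts. A reduction named 1 transcript per locus here kept 35499 rows. A row was dropped when its log2 CPM (pseudocount 0.5) correlated at 0.9 or more with a kept row within 10 rows. No gene annotation was used, so a locus can still keep several rows that share reads. The members and lists were chosen with earlier results of these data known.

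Counts were tested with edgeR 4.0.16 in R 4.3.3 (TMM, filterByExpr with minimum count 10, glmQLFit, glmQLFTest, two-sided, Benjamini-Hochberg over all rows tested, called at an adjusted p under 0.05). The 4 SBP-eIF4A1 and 4 SBP-eIF4A2 libraries shared one fit; the comparison with siControl used the 8 SBP-eIF4A1 libraries. The scripts were tested on simulated data with few changed rows and the same dispersion in every group. In the real data most rows were called and the spread differed between groups, conditions that this simulation did not cover. The planned rule of naming genes, with its gene lists and cell markers, could not be applied, because no table at hand pairs transcripts with genes; the rule's other branch, the 2 highest and 2 lowest called transcripts with a mean of at least 200 counts, was used. Alternatives were DESeq2 1.42.0 (size factors, Wald test), no filter, 1 transcript per locus, a replicate block, leaving out libraries and a fit of only the 4 SBP-eIF4A1 libraries.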

Additional observations from a re-analysis of the deposited data

Results flagged for a closer look

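Results were listed here where the enrichment differed between experiments by a test of the difference itself. Enrichment with SBP-eIF4A1 differed from that with SBP-eIF4A2 for 13212 transcripts, and enrichment after siControl from that without siRNA for 36861. The enriched transcripts ENST00000567076.5 and ENST00000219542.3 differed in both comparisons. SBP-eIF4A1 minus SBP-eIF4A2 was 0.98 and 0.84 log2 units, and siControl minus no siRNA was -1.93 and -1.94 log2 units. Both had been picked as the highest enrichments with SBP-eIF4A1, which are also a term of these differences, so lower values in the other experiments were favoured by the choice.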

How the results depend on the processing

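With DESeq2's size factors, DESeq2's Wald test or no filter on low counts, each of the 3 counts of called transcripts stayed within 1.5 times its value. With 1 transcript per locus, which tests fewer rows, 14727 of 26600 transcripts were called for SBP-eIF4A1 pulldown against input, 4176 for SBP-eIF4A1 minus SBP-eIF4A2 and 13110 of 26115 for siControl minus no siRNA. The labels do not say that a replicate number pairs libraries. Same-numbered input and pulldown libraries deviated from their group means together with a correlation of 0.04 for SBP-eIF4A1, 0.08 for SBP-eIF4A2 and 0.54 after siControl, where the 2 numbers may mark a pairing. A replicate block gave 41955, 13467 and 40396 calls. With only the 4 SBP-eIF4A1 libraries in the fit, 46121 of 62942 transcripts were called for SBP-eIF4A1 pulldown against input. The leave-one-out counts were 35848 to 36471 for SBP-eIF4A1 pulldown against input, 7979 to 22362 for the difference from SBP-eIF4A2 and 31391 to 39057 for the difference after siControl. The difference from SBP-eIF4A2 moved by over 1.5 times without SBP-eIF4A1 input replicate 1 (7979) or 2 (8600), SBP-eIF4A1 pulldown replicate 2 (8338), SBP-eIF4A2 input replicate 1 (8482) or 2 (8050), and SBP-eIF4A2 pulldown replicate 1 (22362). The cause was not tested.

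The settings for the relations across transcripts were chosen after seeing the data. Over all rows tested, low counts included, Spearman's rho with enrichment was -0.23 for length, -0.26 for footprints per RNA, -0.14 for its change in EIF4A1 KO cells and -0.12 for the PP242 change. With 1 transcript per locus it was -0.45 for length, -0.24 for footprints per RNA and -0.22 for the PP242 change. Leave-one-out values were -0.41 to -0.39 for length, -0.33 to -0.31 for footprints per RNA, -0.30 to -0.29 for its change in EIF4A1 KO cells and -0.21 for the PP242 change. No relation changed its sign. The 4 transcripts given by ID kept their direction and call in every setting that tested them. Gene lists and 1 row per gene were not run.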
